A study of Mus musculus with 2 samples.

Results

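The small leucine-rich proteoglycans (SLRPs) are secreted proteins built on leucine-rich repeats, most of which carry glycosaminoglycan chains. The 10 genes described here were chosen by symbol, as Dcn, Bgn, Aspn, Fmod, Lum, Prelp, Kera, Omd, Ogn and Epyc, and all 10 were among the 27998 genes counted. Single-cell RNA was counted at P7 in limb tendon cells from fore- and hindlimbs, in 1 library of wild-type pups with 2364 cells and 1 library of Tgfbr2;ScxCre mutant pups with 2592 cells, each a pool of 2 pups. Mutant pups carried floxed Tgfbr2, the type II receptor for TGFβ, with a Cre recombinase driven by Scx, a transcription factor of tendon cells, and mice of this study also carried the reporters ScxGFP and RosaT. The Cre follows Scx, which is not restricted to tendon, so deletion could not be assumed absent from other cells. The control library is named wild type in its title and genotype labels but Het in its description, and the name wild type is used here. UMIs (unique molecular identifiers, each standing for 1 captured 3′ mRNA end) assigned to Scx may include transcripts of the ScxGFP transgene.

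SLRPs bind collagen fibrils and take part in setting their diameter and spacing. Decorin, biglycan and asporin form class I, fibromodulin, lumican, PRELP, keratocan and osteomodulin form class II, and osteoglycin and epiphycan belong to class III. In tendon, fibromodulin and lumican bind type I collagen at overlapping sites, decorin is the abundant member, and several members also bind TGFβ.

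All the genes but Bgn lie in clusters of the mouse genome (GRCm38). Fmod and Prelp were the only protein-coding genes within the 138 kb of chromosome 1 that they span, from 133910304 to 134048277. Dcn, Lum, Kera and Epyc spanned 203 kb of chromosome 10, from 97479609 to 97682454, and Aspn, Omd and Ogn spanned 80.1 kb of chromosome 13, from 49544443 to 49624501, in each case with no other protein-coding gene between them. The identifiers of the members that differed most between classes of the wild-type library are ENSMUSG00000041559 for Fmod, ENSMUSG00000036446 for Lum, ENSMUSG00000021388 for Aspn, ENSMUSG00000041577 for Prelp and ENSMUSG00000019932 for Kera. Bgn stood apart on the X chromosome, from 73483602 to 73495933. Neighbours did not share 1 expression pattern in the wild-type library, where Fmod and Prelp, Lum and Kera, and Aspn and Omd each differed in opposite directions between the classes of cells described next.

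The 250 bases before the transcription start are shown for Fmod and for its neighbour Prelp, which lay on opposite sides of the comparison of classes, and for Aspn, which changed the most in mutant Scx-high cells. They are from RefSeq on GRCm38.p6, at chr1:134037004-134037253 on the plus strand for Fmod, chr1:133921402-133921651 on the minus strand for Prelp and chr13:49544193-49544442 on the plus strand for Aspn, each written 5′ to 3′ in the direction of its gene. Capitals mark E-boxes, the letters CANNTG, which read the same on both strands and are the kind of site that basic helix-loop-helix factors such as Scx bind.
Fmod: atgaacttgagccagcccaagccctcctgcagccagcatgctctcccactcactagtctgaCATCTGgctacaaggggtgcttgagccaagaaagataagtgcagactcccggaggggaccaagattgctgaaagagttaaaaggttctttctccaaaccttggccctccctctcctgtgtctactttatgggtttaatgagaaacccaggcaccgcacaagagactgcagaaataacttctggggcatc
Prelp: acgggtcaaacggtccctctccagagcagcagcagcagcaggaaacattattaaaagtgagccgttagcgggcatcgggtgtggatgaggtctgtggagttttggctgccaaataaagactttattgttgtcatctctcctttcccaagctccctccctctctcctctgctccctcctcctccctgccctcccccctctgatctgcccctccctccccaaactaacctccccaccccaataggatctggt
Aspn: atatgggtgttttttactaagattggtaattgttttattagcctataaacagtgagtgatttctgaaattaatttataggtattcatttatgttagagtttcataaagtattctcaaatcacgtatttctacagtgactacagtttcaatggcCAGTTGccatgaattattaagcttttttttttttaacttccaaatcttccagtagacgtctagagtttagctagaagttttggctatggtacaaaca
Fmod held 1 E-box, CATCTG at position -189 from the start, Aspn held 1, CAGTTG at -97, and Prelp held 0. Of the other matched genes, Kera and Omd held 0, Bgn 1, Ogn 3, and Epyc 0 or 2 depending on the start used. E-boxes thus did not follow the sides of the comparison of classes. Promoter sequences were matched for 8 of the 10 genes, and at least 1 E-box was found in 66.2% of 32851 promoter windows of this length. The Smad-type letters CAGAC, searched on both strands, occurred 2 times in the Fmod window, 1 time in that of Prelp and 0 times in that of Aspn, without overlapping an E-box. They occurred 0 times in the windows of the other matched genes, and in 42.2% of all windows.

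Cells were split by fixed cuts on 5 genes that are not SLRPs. Scx-high cells had 30 or more Scx UMIs per 10,000, Scx-low fibroblasts had less Scx and 5 or more UMIs summed over Ly6a, Cd34, Dpt and Col3a1, and all remaining cells were called other. The wild-type library held 1178 Scx-high cells (49.8%), 822 Scx-low fibroblasts (34.8%) and 364 other cells, and the mutant library held 235 (9.07%), 1862 (71.8%) and 495. These classes are ranges of a score, not cell types. Between 20 and 45 Scx UMIs per 10,000 lay 79 wild-type and 61 mutant cells, and 14.2% of wild-type but 74.0% of mutant Scx-high cells also had 5 or more UMIs over the 4 fibroblast genes. In mutant Scx-high cells Col3a1 gave most of these UMIs, with 4965, against 80 of Ly6a, 113 of Cd34 and 137 of Dpt. Of the Scx-low fibroblasts, 593 of 822 wild-type and 1457 of 1862 mutant cells had 2 or more UMIs over the 3 genes without Col3a1. The tendon markers Tnmd and Col1a1 had medians of 68.4 and 748 UMIs per 10,000 over wild-type Scx-high cells and 43.2 and 201 over mutant ones, against medians of 0 and 73.2 over wild-type and 0 and 94.6 over mutant Scx-low fibroblasts. Even so, a UMI of Tnmd was found in 47.0% of wild-type and 46.9% of mutant Scx-low fibroblasts, so the class was not free of tendon markers. The 6 fibroblast markers Ly6a, Cd34, Dpt, Pi16, Clec3b and Mfap5 summed to 250.2 UMIs per 1000000 (CPM) in wild-type and 1922 in mutant Scx-high cells, against 7465 and 4934 in the Scx-low fibroblasts. Ly6a, Cd34 and Dpt also cut the classes, so the higher sums in Scx-low fibroblasts are partly built in. In mutant Scx-high cells the 6 markers held 2081 UMIs, most of them from Pi16, Clec3b and Mfap5.

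The libraries held 9451606 wild-type and 8250248 mutant UMIs, with 948 to 14358 and 903 to 15968 UMIs per cell. Median depth was 4286 UMIs per cell in wild-type and 4251 in mutant Scx-high cells, 3763 and 2945 in Scx-low fibroblasts, and 2841 and 2011 in other cells. The libraries had 2 cell barcodes in common. Tgfbr2 was counted at 30.9 CPM in wild-type and 45.3 in mutant Scx-high cells, but 3′ ends need not be lost with an upstream floxed exon and so gave no check of the labels. With 1 library per condition there was no spread between replicates and no test was possible, batch and condition cannot be told apart, and each direction rests on the labels. All intervals are exact 95% intervals and cover counting error only. In text and plots a level is in CPM, the UMIs of a gene summed over the cells of a class per 1000000 UMIs of that class, which for 3′ counts does not scale with transcript length.

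The 10 genes together made up 22355 CPM in wild-type Scx-high cells and 11887 in wild-type Scx-low fibroblasts, a ratio of 1.88 (1.86 to 1.90). In the mutant library they made up 14842 in Scx-high cells and 16076 in Scx-low fibroblasts, a ratio of 0.923 (0.908 to 0.939). On the log2 scale this mutant ratio was -0.12, the same as the median of all genes compared there, whereas the wild-type ratio was 0.91 beside a median of -0.44. Other cells held 1300 CPM in the wild-type library and 2377 in the mutant one. Dcn gave the largest part in each of the 4 main groups, from 39.4% of SLRP UMIs in mutant to 58.1% in wild-type Scx-high cells. The second place was taken by Fmod in wild-type Scx-high cells (23.7%), by Bgn in wild-type Scx-low fibroblasts (17.4%) and in mutant Scx-high cells (27.3%), and by Lum in mutant Scx-low fibroblasts (17.1%).

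**Figure D1:**
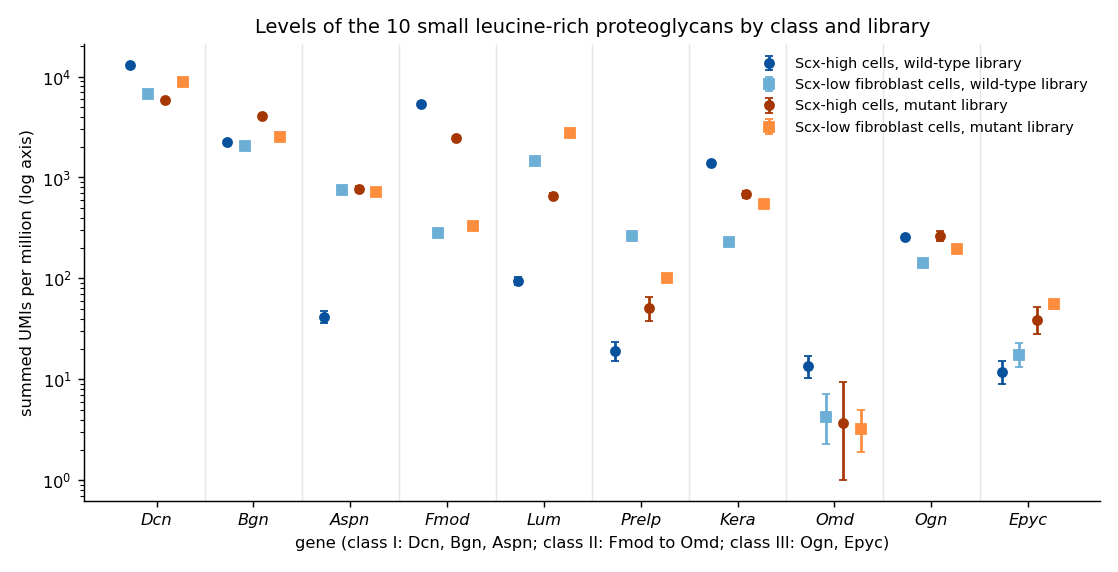
Level of each SLRP gene, as summed CPM on a log axis, in Scx-high cells (circles) and Scx-low fibroblasts (squares) of the wild-type (blue) and mutant (orange and brown) libraries. Bars are exact 95% Poisson intervals, which are hidden by the points for abundant genes. Aspn stood at 41.9 in wild-type Scx-high cells and between 713 and 777 in the other 3 groups.

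Which members marked the tendon state and which the fibroblast state was read from the wild-type library. Fmod, Kera and Omd were 2-fold or more higher in Scx-high cells, Lum, Aspn and Prelp were 2-fold or more lower, and Dcn, Bgn, Ogn and Epyc lay within 2-fold. A gene was compared where it had 50 or more UMIs over both groups, which all 10 had. Of 8827 genes compared, 4.78% were 2-fold or more higher and 18.9% were 2-fold or more lower, so that 3 of 10 on the higher side stood further from the share of all genes than 3 of 10 on the lower side. The median log2 ratio of all genes was -0.44. After centring on that median, 9.67% of all genes were higher and 10% lower, and Dcn, at 1.39, and Ogn, at 1.28, joined the higher members, making 5.

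Among class II members, Fmod was counted at 5299 CPM in wild-type Scx-high cells and 279 in wild-type Scx-low fibroblasts, a ratio of 19.0 (17.8 to 20.3), the largest of the family. Kera, the keratan sulfate proteoglycan of cornea and tendon, stood at 1389 and 229, a ratio of 6.06 (5.63 to 6.55). Omd, best known from bone, was rare, with 66 and 14 UMIs and levels of 13.4 and 4.23, a ratio of 3.17 (1.76 to 6.12). The members on the Scx-high side thus included both abundant and rare ones.

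The other class II members went the opposite way. Lum stood at 94.6 CPM in wild-type Scx-high cells and 1449 in Scx-low fibroblasts, 15.3-fold lower (13.9 to 16.9) in the former. Prelp, a heparin-binding member, stood at 18.9 and 262, 13.9-fold lower (11.2 to 17.3). Of class I, Aspn, whose protein has an aspartate-rich stretch in place of the glycosaminoglycan sites of decorin, stood at 41.9 and 745, 17.8-fold lower (15.4 to 20.6). Dcn, at 12985 and 6692, was 1.94-fold higher (1.91 to 1.97) in Scx-high cells, just inside the 2-fold line, and Bgn, at 2245 and 2066, differed by a ratio of 1.09 (1.05 to 1.12). Of class III, Ogn stood at 257 and 143, a ratio of 1.79 (1.61 to 2.00), and Epyc at 11.8 and 17.5, a ratio of 0.673 (0.460 to 0.986).

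In the mutant library Fmod, Lum, Prelp, Kera and Aspn lay closer to even between the same 2 classes than in the wild-type library. Of the 10 members, 9 reached 50 UMIs, and of these 1, Fmod, was 2-fold or more higher in Scx-high cells, where 4.41% of 8716 genes were, and 2, Lum and Prelp, were 2-fold or more lower, where 11.7% of all genes were. Fmod stood at 2464 CPM in mutant Scx-high cells and 332 in mutant Scx-low fibroblasts, a ratio of 7.43 (7.01 to 7.88). Lum stood at 655 and 2743, 4.19-fold lower (3.89 to 4.52). Prelp stood at 50.8 and 102, 2.01-fold lower (1.52 to 2.70), on 55 UMIs in the Scx-high cells, and fell short of 2-fold when centred on the median log2 ratio of all genes, which was -0.12. Centring left 5.42% of all genes higher and 9.57% lower.

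The members that had stood 2-fold or more apart in the wild-type library and no longer did were Kera and Aspn. Kera was counted at 682 in mutant Scx-high cells and 544 in Scx-low fibroblasts, a ratio of 1.25 (1.16 to 1.36). Aspn was counted at 777 and 713, a ratio of 1.09 (1.01 to 1.17). Dcn changed sides, at 5852 and 8878, a ratio of 0.659 (0.642 to 0.677) against 1.94 in the wild-type library. Omd, with 4 and 19 UMIs, was too rare to be compared. Bgn, at 4056 and 2512, had a ratio of 1.61 (1.56 to 1.67), Ogn, at 264 and 194, one of 1.36 (1.19 to 1.55), and Epyc, at 38.8 and 55.3, one of 0.701 (0.496 to 0.968).

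**Figure D2:**
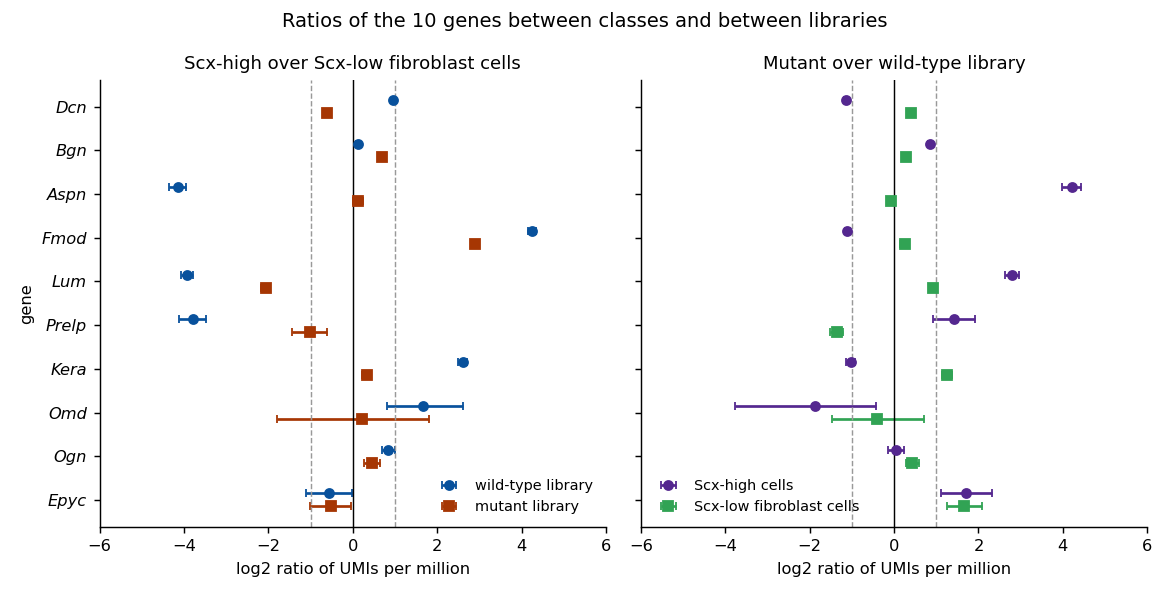
Log2 ratios of CPM for each SLRP gene, Scx-high cells over Scx-low fibroblasts in each library (left) and mutant over wild-type library in each class (right), with exact 95% intervals and dashed lines at 2-fold. On the left, Aspn moved from -4.15 in the wild-type to 0.12 in the mutant library. On the right, the Scx-high values ranged from -1.86 for Omd to 4.21 for Aspn.

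Scx-high cells were then compared between libraries. The paper proposes that cells keeping ScxGFP in mutant tendons were newly recruited, as some had weak or no RosaT signal. Mutant Scx-high cells may differ in origin from wild-type ones, and this cannot be told apart here from changes within a kind of cell. The 4 members Lum, Aspn, Prelp and Epyc were 2-fold or more higher in the mutant library, against 10.7% of 7467 genes, and the 4 members Fmod, Dcn, Kera and Omd were 2-fold or more lower, against 5.87% of genes. The median log2 ratio of all genes was 0.28, and after centring on it 6% of genes were higher and 9.24% lower, with the counts of members still 4 and 4. This comparison shares the wild-type Scx-high cells with the comparison of classes above, so the directions of both are not independent of each other.

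Aspn stood at 41.9 CPM in wild-type and 777 in mutant Scx-high cells, 18.5-fold higher (15.9 to 21.7), and a UMI of it was found in 7.98% of wild-type (6.50 to 9.68) and 63.0% of mutant cells (56.5 to 69.2). Lum stood at 94.6 and 655, 6.92-fold higher (6.15 to 7.80), with a UMI in 19.4% and 56.6% of cells. Prelp was 2.68-fold higher (1.89 to 3.79), on 93 and 55 UMIs. Epyc was 3.29-fold higher (2.16 to 4.97), on 58 and 42 UMIs held by 16 and 18 cells. UMIs of 1 cell are not independent of each other, which the interval does not cover. Fewer UMIs stand behind the values of Prelp and Epyc than behind those of Aspn and Lum.

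Fmod stood at 5299 CPM in wild-type and 2464 in mutant Scx-high cells, 2.15-fold lower (2.07 to 2.24), with a UMI in 98.7% (97.9 to 99.3) and 83.8% of cells (78.5 to 88.3). Dcn, at 12985 and 5852, was 2.22-fold lower (2.16 to 2.28), and Kera, at 1389 and 682, 2.04-fold lower (1.89 to 2.20). When each cell was given the same weight, Dcn and Kera were no longer 2-fold lower, at log2 ratios of -0.90 and -0.64, and with an Scx cut of 15 per 10,000 Kera stood at -0.90. Omd, on 66 and 4 UMIs, was 3.63-fold lower (1.35 to 13.7). Bgn was 1.81-fold higher (1.75 to 1.87) and Ogn differed by a ratio of 1.03 (0.902 to 1.17). The summed levels of Scx itself, which set the class, were 25435 and 27937, but its medians over cells were 222 and 159 UMIs per 10,000. From 30 to 100 Scx UMIs per 10,000 lay 146 of the 1178 wild-type and 91 of the 235 mutant cells. The classes were therefore not matched cell by cell for Scx.

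These cells also differed in other ways that move with the SLRP values. Col3a1 was 8.39-fold higher (8.003 to 8.80) and Dpt 14.8-fold higher (10.41 to 21.5) in mutant than in wild-type Scx-high cells, Col1a1 was 3.58-fold lower (3.53 to 3.62), and the summed chondrocyte markers Acan, Col9a1, Matn1, Col2a1 and Sox9 stood at 1121 and 499.5 CPM, with Matn1 at 0 in both. Scx-high cells with 5 or more Col2a1 UMIs numbered 371 of 1178 in the wild-type and 2 of 235 in the mutant library. The part of these differences in the SLRP values was not tested. A split of the Scx-high cells at 5 UMIs over the 4 fibroblast genes, most of them UMIs of Col3a1, was added after their values had been seen. Restricting both libraries to Scx-high cells with under 5 UMIs over the 4 fibroblast genes, 1011 wild-type and 61 mutant cells, left Lum at 55.1 and 327 CPM, Aspn at 12.5 and 237, Fmod at 5564 and 2058, Dcn at 13484 and 5966, and Kera at 1416 and 1111. Mutant cells in this subset were shallower, with a median of 2523 UMIs against 4224. Among cells with 5 or more such UMIs, 167 and 174 in number, Lum stood at 289.8 and 719, Aspn at 187 and 882, Fmod at 3989 and 2543, Dcn at 10521 and 5830.2, and Kera at 1259.6 and 597, with median depths of 4782 and 4990 UMIs. Lum and Aspn were higher and Fmod, Dcn and Kera lower in the mutant cells of either subset, with Kera closer to even in the cells with under 5 such UMIs.

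Free RNA was gauged from cells that should lack SLRP transcripts. In wild-type immune-rule cells, 178 other cells with 3 or more UMIs over 7 leukocyte markers, Lum and Aspn each stood at 8.58 CPM and Fmod at 107, and in the 182 mutant ones Lum stood at 41.1, Aspn at 14.7 and Fmod at 23.5. The levels of Lum and Aspn in mutant Scx-high cells, 655 and 777, were above these, and the part of free RNA in them was not tested. Shares of cells gave the same order at equal depth, with 1500 UMIs drawn from each cell and 89 wild-type and 19 mutant Scx-high cells below that depth not used. Aspn was then found in 4.32% of wild-type and 46.3% of mutant Scx-high cells, against 1.44% and 0.980% of immune-rule cells, and Lum in 9.09% and 39.4%, against 0.719% and 5.88%.

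Fmod in wild-type Scx-low fibroblasts came closer to that background. A UMI of Fmod was found in 33.8% of these cells, 23.0% of immune-rule cells (median 2376 UMIs) and 22.7% of 88 haemoglobin-rich cells (median 5682 UMIs), and after thinning in 19.4%, 17.99% and 2.60%. The thinned share over all these fibroblasts was close to that of immune-rule cells, and by itself is not read as expression. In haemoglobin-rich cells over 50% of UMIs are haemoglobin, so thinning leaves fewer UMIs for other genes there. Their thinned share is therefore not a background at equal depth. How much of it was free RNA was not tested. The level of Fmod in these fibroblasts, 279 CPM, was above the 107 of immune-rule cells. Most of this level came from cells with 2 or more UMIs of Tnmd, the gene of the tendon membrane protein tenomodulin. The 226 wild-type Scx-low fibroblasts with 2 or more Tnmd UMIs held Fmod at 784 CPM, and the 596 others held it at 87.9. Immune-rule cells were not split on Tnmd, so comparing either value with theirs cannot separate expression from free RNA.

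The same split in Scx-low fibroblasts set other members apart too. Kera stood at 586 CPM in the Tnmd cells and 94.2 in the others of the wild-type library, and at 1005 and 288 in the mutant library, where 602 cells had 2 or more Tnmd UMIs. Lum was on the other side in the wild-type library, at 887 and 1662, and closer to even in the mutant library, at 2447 and 2907. Fmod in the mutant Tnmd cells, 666, and in the others, 146, kept the order seen in the wild-type library. Cells with a UMI of Pi16, a marker of adventitial fibroblasts, numbered 323 and 364. In the wild-type library they held 2190.3 CPM of Lum, 1119 of Aspn and 9118 of Dcn, against 948, 492.5 and 5050.3 in fibroblasts without Pi16, whereas Prelp, at 264 and 261, was even. In the mutant library the same contrast was 3261 against 2602 for Lum, 818 against 684 for Aspn and 8896 against 8874 for Dcn.

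**Figure D3:**
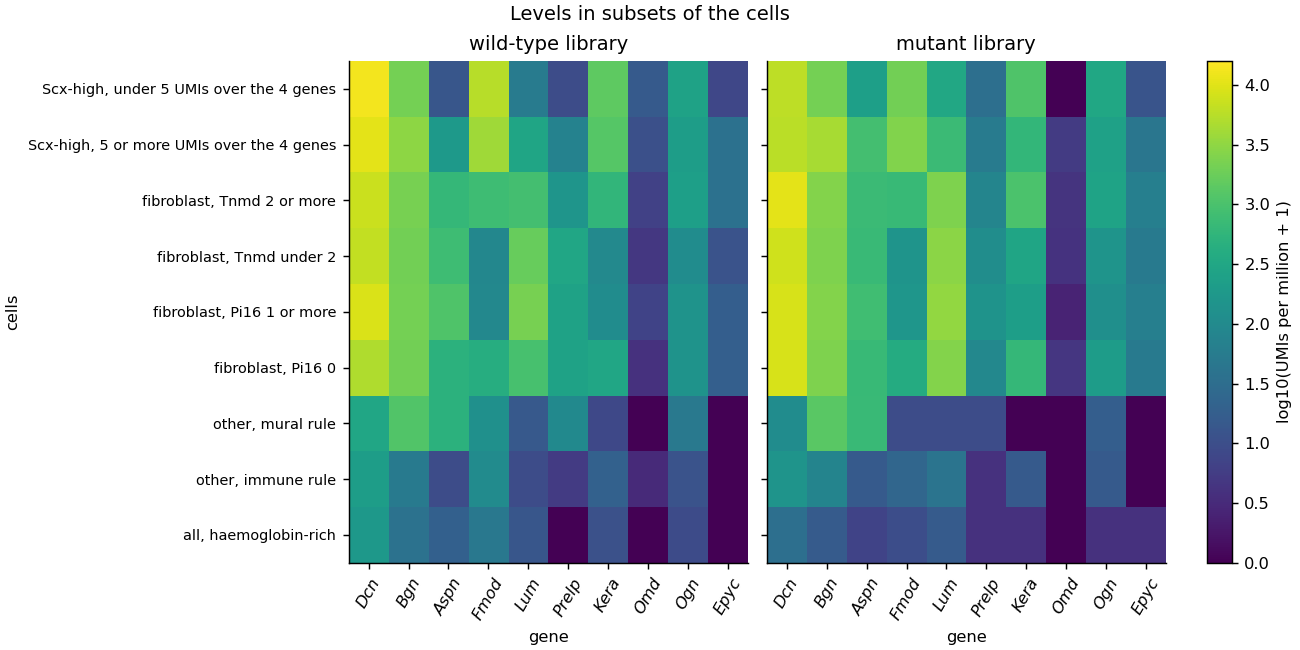
Levels of the SLRP genes, as log10 of CPM plus 1, in subsets of Scx-high cells, Scx-low fibroblasts and other cells of the wild-type (left) and mutant (right) library. The 4 genes are Ly6a, Cd34, Dpt and Col3a1. In the wild-type library Aspn went from 12.5 CPM in Scx-high cells with few fibroblast UMIs to 1119 in Pi16 cells, and in the mutant library from 237 to 818.

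Between libraries, Scx-low fibroblasts had fewer members past 2-fold than Scx-high cells. Scx-low fibroblasts made up 34.8% of wild-type and 71.8% of mutant cells and may differ in origin. The paper traced ScxGFP-negative cells in mutant tendons to tenocytes. In wild-type tendons it stained Sca-1, encoded by Ly6a, and CD34 in the epitenon, the layer around the tendon, but not in tenocytes. The scraping step that removes epitenon cells was left out for these libraries. Changes within a kind of cell and changes in the kinds of cells cannot be told apart here. Of 9 members with enough UMIs, Kera and Epyc were 2-fold or more higher in the mutant library, against 4.07% of 9561 genes, and Prelp was 2-fold or more lower, against 5.07% of genes. Kera, at 229 CPM in the wild-type library and 544 in the mutant one, was 2.37-fold higher (2.19 to 2.57). Epyc, at 17.5 and 55.3, was 3.16-fold higher (2.38 to 4.25), on 58 and 329 UMIs held by 20 and 108 cells. Prelp, at 262 and 102, was 2.57-fold lower (2.31 to 2.85). Lum, at 1449 and 2743, had a ratio of 1.89 (1.83 to 1.96), Dcn, at 6692 and 8878, one of 1.33 (1.31 to 1.35), and Ogn, at 143 and 194, one of 1.35 (1.21 to 1.51). Bgn had a ratio of 1.22 (1.18 to 1.25), Fmod one of 1.19 (1.10 to 1.29) and Aspn one of 0.957 (0.910 to 1.01). For Fmod the direction was not kept when each cell had the same weight, at a log2 ratio of -0.26, and a UMI of it was found in 33.8% of wild-type and 23.0% of mutant cells, or 19.4% and 17.7% after thinning, so no direction is given for it. Omd had 14 and 19 UMIs.

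Dcn and Kera were therefore lower in mutant Scx-high cells and higher in mutant Scx-low fibroblasts, and Prelp was the reverse. Markers of pericytes and smooth muscle (Rgs5, Myh11, Notch3, Mcam and Kcnj8) summed to 764 CPM in wild-type and 162.5 in mutant Scx-low fibroblasts, with 13.6% and 2.63% of cells at 3 or more of these UMIs and none of the 5 genes at 0. Haemoglobin and Alas2 UMIs in these cells summed to 5508 and 877. Leaving out cells with 3 or more UMIs of a marker list and haemoglobin-rich cells kept each of the 10 members on the same side of 2-fold between libraries in both classes. Dcn in Scx-low fibroblasts was within 2-fold from the start, and its log2 ratio went from 0.41 to 0.21, the lowest under any alternative run.

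All cells of each library, taken without any cut, gave the sum of changed levels and changed numbers of cells. Lum, at 559.5 and 2097 CPM, was 3.75-fold higher in the mutant library (3.64 to 3.87), Aspn, at 293 and 636, 2.17-fold (2.07 to 2.27) and Epyc, at 12.5 and 45.7, 3.66-fold (2.97 to 4.54), against 6.14% of 10998 genes that were 2-fold or more higher. Fmod, at 2882 and 583, was 4.94-fold lower (4.79 to 5.10) and Omd, at 8.57 and 2.91, 2.95-fold lower (1.85 to 4.86), against 3.98% of genes that were 2-fold or more lower. The median log2 ratio of all genes was 0.19, and after centring on it Aspn was no longer 2-fold higher. Fewer cells of a kind and fewer transcripts per cell cannot be told apart in these sums. Dcn had a ratio of 0.801 (0.792 to 0.809), Prelp one of 0.787 (0.713 to 0.869), Kera one of 0.630 (0.607 to 0.655), Bgn one of 1.25 (1.22 to 1.27) and Ogn one of 0.977 (0.912 to 1.05).

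Levels were also followed along bins of Scx, over the Scx-high and Scx-low fibroblast cells together. Below 30 Scx UMIs per 10,000 this pool holds only cells that passed the fibroblast rule, and from 30 upwards all cells, so the rule itself changes at the cut. Fmod in the wild-type library stood at 124 CPM without Scx, at 136 and 238 up to 3 and up to 10 Scx UMIs per 10,000, at 1338 up to 30, at 3966 up to 100 and at 5448 above 100. In the mutant library the same bins held 191, 617, 643, 1251, 1889.9 and 2748. As summed levels, Fmod was higher in the mutant library up to 10 Scx UMIs per 10,000 and lower from 30 upwards. Cells up to 10 in this pool are Scx-low fibroblasts, for which no direction of Fmod between libraries is given, so none is read here. Scx stood at 402 CPM in wild-type Scx-low fibroblasts and 417 in wild-type other cells, against 158.8 and 122.8 in the mutant library. The part of free RNA in these low Scx values was not tested, and the low bins need not hold like cells in both libraries. Lum in this pool was lower in each bin than in the one before in both libraries, and went from 1582.5 to 76.9 in the wild-type and from 2962 to 434 in the mutant library. The bin above 100 held 1032 wild-type and 144 mutant cells. Its intervals for Lum were 69.0 to 85.6 and 387 to 485, which cover counting error only and no spread between pups. With all cells of a library in the bins, wild-type Lum stood at 1118 without Scx, 1163 up to 3 and 1052 up to 10 Scx UMIs per 10,000, and mutant Lum went from 2468 without Scx to 1481 in the bin below 30.

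Aspn went from 834 to 31.9 along Scx in the wild-type library, lower in each bin than in the one before, but not in the mutant library, where it stood at 629 without Scx, between 718 and 983 in the bins between, and at 806 above 100. Dcn stood between 6342 and 7390.2 below 30 and at 13188 above 100 in the wild-type library, and went from 8997 without Scx to 7899 from 30 to 100 and 4836 above 100 in the mutant library. Kera stood at 108 to 216 up to 10 Scx UMIs per 10,000 and at 1413 above 100 in the wild-type library, whereas in the mutant library it reached 986 in the bin from 10 to 30 and stood at 547 above 100. Bgn stayed between 1855 and 2437 in the wild-type library and went from 2273 without Scx to 4149.5 above 100 in the mutant library. Prelp in the wild-type library went from 249.8 without Scx to 16.1 above 100, and in the mutant library from 104 to 31.8.

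**Figure D4:**
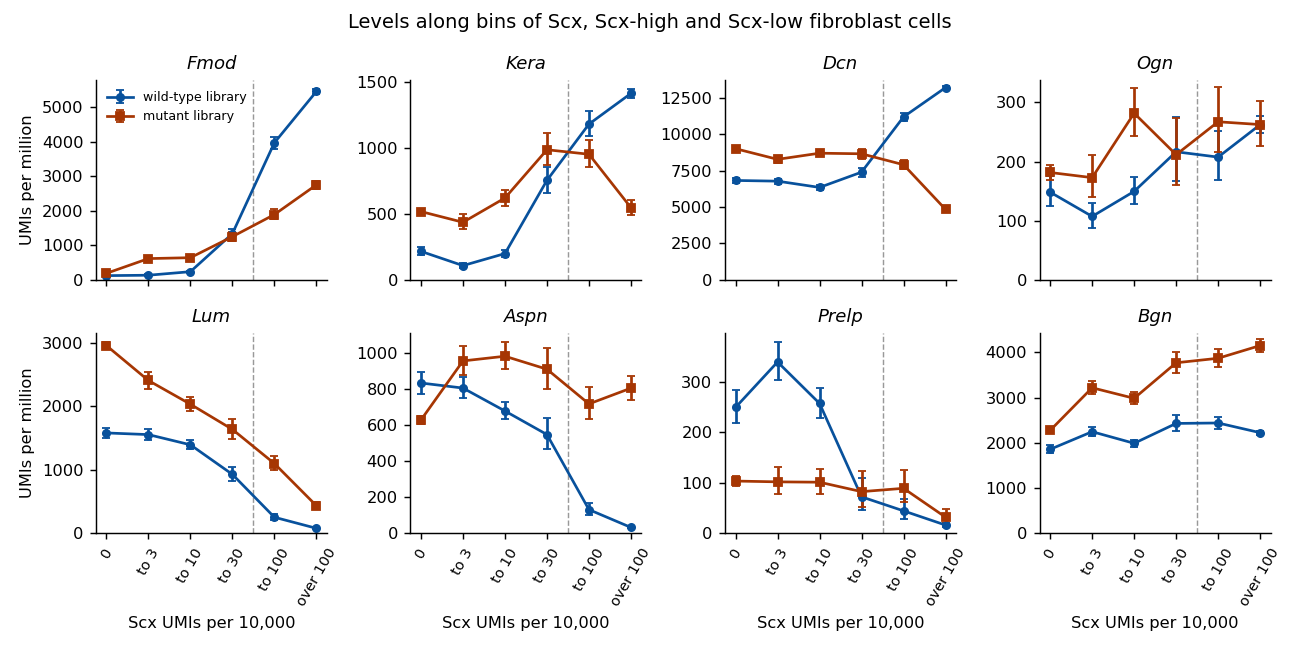
Level of 8 SLRP genes, in CPM, along bins of Scx UMIs per 10,000 in the wild-type (blue) and mutant (brown) library, over Scx-high and Scx-low fibroblast cells, with exact 95% intervals. The dashed line marks the cut of 30. The lines for Dcn crossed near the cut, and above 100 Scx UMIs per 10,000 the wild-type library stood at 13188 and the mutant library at 4836.

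Fmod and Lum, which mark the opposite classes, were also read within single cells. The Fmod share of Fmod plus Lum UMIs was taken in cells with 5 or more UMIs of the pair. Of 1128 wild-type Scx-high cells, 94.4% had a share of 90% or more and 5.32% a share between 10 and 90%. Of 185 mutant Scx-high cells, 50.3% had 90% or more, 6.49% had 10% or less and 43.2% lay between. The medians were 100% and 90.9%. Scx-low fibroblasts had a median of 0% in either library, and 69.7% of 419 wild-type and 76.8% of 1194 mutant cells had 10% or less.

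Both transcripts were met more often in 1 cell in the mutant library. At least 2 UMIs of each were found in 6.54% of the 1178 wild-type and in 34.0% of the 235 mutant Scx-high cells, whose median depths were alike. The doublet caller Scrublet marked 16 of the wild-type and 0 of the mutant Scx-high cells, the latter allowing a share of up to 1.28%, but it marked only 8 of all 2592 mutant cells. In Scx-low fibroblasts the shares were 7.42% and 11.4%.

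**Figure D5:**
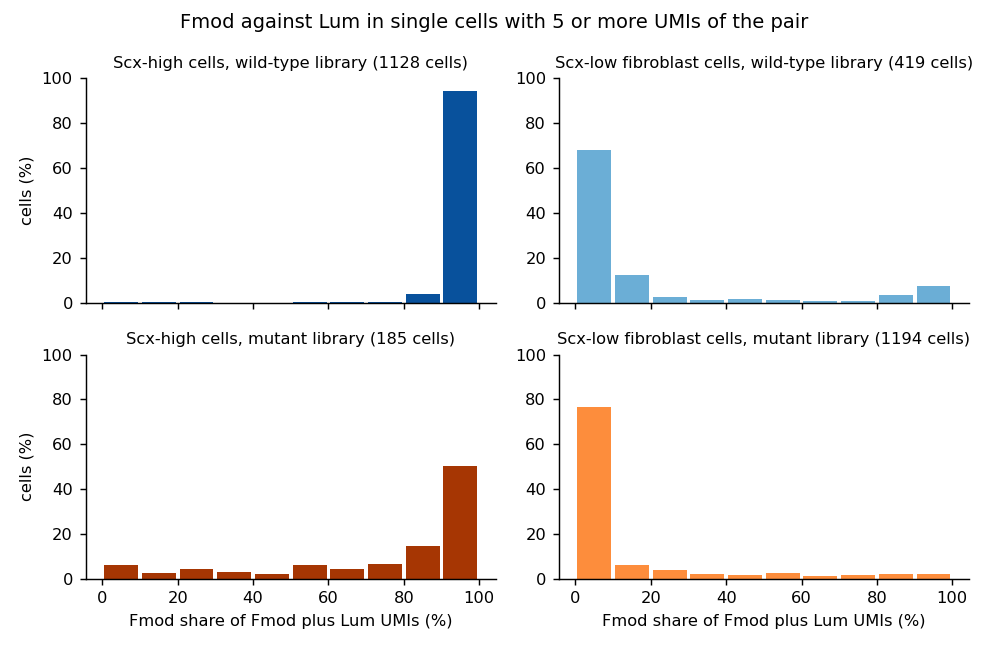
Fmod share of Fmod plus Lum UMIs in single cells with 5 or more UMIs of the pair, as percent of the cells of each panel, for Scx-high cells (left) and Scx-low fibroblasts (right) of the wild-type (top) and mutant (bottom) library. Wild-type Scx-high cells piled up at 90% or more (94.4% of 1128 cells), whereas 43.2% of 185 mutant Scx-high cells lay between 10 and 90%.

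Members were also compared over all cells of a library. Pearson's r of log2 of 1 plus UMIs per 10,000 is given as a description, since cells of 1 library share its depth and free RNA. Fmod and Kera had r = 0.75 over the 2364 wild-type cells, Lum and Aspn 0.60, and Fmod and Lum -0.42. Over the 2592 mutant cells the same pairs had r = 0.26, 0.20 and -0.07, and Lum and Dcn had 0.68, against 0.25 in the wild-type cells. Values over all cells also depend on the mix of classes, which differed between the libraries. Within Scx-high cells the same pairs had r = 0.29, 0.17 and -0.19 in the wild-type and 0.26, 0.01 and -0.10 in the mutant library. Within Scx-low fibroblasts these values were 0.41, 0.42 and -0.17, and 0.17, 0.01 and -0.09. Lum and Dcn had 0.06 and 0.42 within Scx-high cells, and 0.59 and 0.45 within Scx-low fibroblasts. Lum and Kera, on opposite sides in the wild-type library, had 0.20 over the mutant cells, as high as Lum and Aspn. By the mean r of both libraries over 3728 genes with a mean of 0.1 UMI per cell or more in each, the genes most like Fmod were Tnmd (mean r = 0.74), Scx (0.73) and Pdgfrl (0.66). The genes most like Lum were Col3a1 (0.62), Dpt (0.56) and Ly6a (0.54), of which all 3 belong to the rule for Scx-low fibroblasts. Dcn was most like Col1a1 (0.80), Col1a2 (0.80) and Serpinf1 (0.74), and Bgn like Sparc (0.58), Igfbp7 (0.56) and Serpinh1 (0.54).

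Kera was most like Tnmd (0.60), 1500015O10Rik (0.56) and Col1a1 (0.55). Aspn was most like the microfibril gene Mfap5 (0.53), Col3a1 (0.53) and the matricellular gene Postn (0.51). Ogn and Prelp had lower values, with Col1a2 (0.35), 1500015O10Rik (0.35) and Mfap4 (0.34) for Ogn and Ly6a (0.34), Clec3b (0.34) and Mfap5 (0.32) for Prelp. Omd and Epyc were too rare for this measure.

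Epyc, a cartilage proteoglycan, was concentrated in few cells. In the wild-type library 37 cells held its 118 UMIs, and the 8 cells with 5 or more of them held 58.5%. In the mutant library 130 cells held 377 UMIs, and 21 cells with 5 or more held 43.5%. Of the mutant Epyc cells, 108 were Scx-low fibroblasts, a class that held 71.8% of mutant cells. A UMI of Epyc was found in 5.80% of mutant Scx-low fibroblasts and 7.66% of mutant Scx-high cells, or 4.23% and 3.70% after thinning. Cells with 5 or more UMIs of Col2a1, the collagen gene of cartilage, numbered 379 among wild-type cells and 2 among mutant cells, and Epyc was found in 2.64% of those wild-type cells and 1.36% of the rest.

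Other cells held less of the family. Dcn stood there at 549.7 CPM in the wild-type library and 1174 in the mutant one, Fmod at 225 and 141, and Lum at 22.8 and 233. Mural-rule cells, 44 in the wild-type library and 49 in the mutant one with 3 or more UMIs over the pericyte and smooth muscle markers, held Bgn at 1145 and 1336 CPM and Aspn at 506 and 706, whereas Lum had 2 and 1 UMIs. Endothelial-rule cells, 15 and 16 in number, held Bgn at 587.5 and 576. Aspn and Bgn were therefore not limited to Scx-high cells and fibroblasts.

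The enzymes that build the chains and the relatives of the family were read from lists chosen by function. Of 7 enzymes for the linker by which chains are attached, 7 were compared in the wild-type library and 0 differed 2-fold or more between Scx-high cells and Scx-low fibroblasts. Of 16 enzymes for chondroitin and dermatan chains, which decorin and biglycan carry, 11 were compared, with 0 higher and 2, Chst7 and Chst15, lower. Of 11 enzymes for keratan chains, which fibromodulin, lumican and keratocan carry, 8 were compared, with 1 higher and 6 lower. Of all 8827 genes compared there, 4.78% were higher and 18.9% lower. The median log2 ratio was -0.07 for the linker list, -0.31 for the chondroitin list and -1.25 for the keratan list, beside -0.44 for all genes.

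Chst5, a keratan sulfotransferase, was the higher 1, at 72.8 CPM in wild-type Scx-high cells and 7.56 in Scx-low fibroblasts, a ratio of 9.64 (6.42 to 15.1), and at 87.7 and 19.5 in the mutant library, a ratio of 4.50 (3.39 to 5.95), which put it on the side of Fmod in both. The sialyltransferase St3gal1, at 5.09 and 35.1, the galactosyltransferase B4galt1, at 9.15 and 35.4, St3gal4, at 15.1 and 50.5, and B4galt4, at 7.73 and 19.04, were the 4 farthest on the lower side in wild-type Scx-high cells. In mutant Scx-high cells these 4 stood at 15.7, 29.55, 45.25 and 18.5, with B4galt1 at a ratio of 3.23 (1.99 to 5.19) to the wild-type cells and St3gal4 at 3.005 (2.05 to 4.37). Between libraries in Scx-high cells, 4 of 6 keratan enzymes compared were 2-fold or more higher, namely B4galt1, B4galt4, St3gal2 and St3gal4, and 1, Chst2, was lower, on 49 and 3 UMIs. Of 9 chondroitin enzymes 2, Csgalnact1 and Chsy1, were higher, and 0 of 6 linker enzymes were past 2-fold in either direction. Of all 7467 genes in this comparison, 10.7% were higher and 5.87% lower. Chst7, Chst15, St3gal2, Chst2, Csgalnact1 and Chsy1 are named after their values were seen.

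Of 8 relatives with leucine-rich repeats, 5 were compared. Chad, the gene of the cartilage protein chondroadherin, stood at 131 CPM in wild-type Scx-high cells and 8.46 in Scx-low fibroblasts, a ratio of 15.5 (10.6 to 23.4), and unlike Fmod it was higher in mutant Scx-high cells, at 283, a ratio of 2.17 (1.88 to 2.49). Podn, which encodes podocan, stood at 3.46 and 27.8 in the wild-type classes and at 81.3 in mutant Scx-high cells, a ratio to the wild-type ones of 23.5 (13.9 to 42.1) on 17 and 88 UMIs. Tsku, which encodes tsukushi, was 12.0 and 24.2 in the wild-type and 14.8 and 17.3 in the mutant classes.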

How the data were processed

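Cells from the limb tendons of P7 pups were profiled by 10x Genomics 3′ sequencing. The authors aligned reads to mm10 and made the counts with Cell Ranger, given as version 2.0 in the study's methods and as 1.2.0 in the submitters' processing notes, and deposited unnormalized UMI counts per gene and cell, 1 matrix per library. Every deposited cell was kept. Python 3.11.15, NumPy 2.4.6, SciPy 1.17.1, pandas 2.3.3 and matplotlib 3.10.9 were used. For each class of cells the UMIs of a gene were added up and divided by the total of that class, with exact Poisson intervals for levels, exact binomial (Clopper-Pearson) intervals for shares of cells and exact conditional intervals for ratios, all at 95% and for counting error only. PCR and capture differences between libraries are not covered. A gene was compared at 50 or more UMIs over both groups, 3 UMIs stood in for a group at 0, and 2-fold or more in either direction was counted. No test was made, because each condition had 1 library. Cells with over 50% haemoglobin UMIs were called haemoglobin-rich, and cells of the other class with 3 or more UMIs of a marker list were put under that list's rule. Scrublet in scanpy 1.11.5 called 26 wild-type (1.1%) and 8 mutant (0.309%) cells doublets, which were kept in the main values. The mutant share is too low to show that the caller worked there. Thinning to 1500 UMIs left out 89, 42 and 68 wild-type and 19, 159 and 150 mutant cells of the Scx-high, Scx-low fibroblast and other classes. Named beside the 10 members are the genes of the relatives and enzyme lists with 100 or more UMIs over both classes of the wild-type library that were 2-fold or more apart there, at most 4 per direction and list, the genes that cut the classes with Tnmd, Col1a1 and Tgfbr2, and the 3 genes most correlated with each member. Positions come from GENCODE M21 on GRCm38. The ratio script was tested on simulated data. The members, lists and cuts were chosen with earlier results of these data known.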

Additional observations from a re-analysis of the deposited data

Results flagged for a closer look

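Several members differed between the libraries in opposite directions in the 2 classes of cells, as ratios of mutant to wild-type level. Dcn had a ratio of 0.451 in Scx-high cells and 1.33 in Scx-low fibroblasts, Kera 0.490 and 2.37, and Prelp 2.68 and 0.390. Fmod had 0.465 and 1.19, but in Scx-low fibroblasts its direction was not kept with equal weight per cell, at a log2 ratio of -0.26, and its share of cells with a UMI was lower in the mutant library, at 23.0% against 33.8%. Read the other way, as Scx-high cells over Scx-low fibroblasts within a library, Dcn had a ratio of 1.94 in the wild-type library and 0.659 in the mutant one, and Aspn 0.0562 and 1.09. With 1 library per condition, these differences between ratios were not tested. Both readings use the same 4 groups of cells and are not independent of each other.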

How the results depend on the processing

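Of 25 ratios of a member that were 2-fold or more apart, 25 kept their direction and 21 stayed past 2-fold under every alternative run. The exceptions were Prelp between classes of the mutant library, Dcn and Kera in Scx-high cells, and Aspn over all cells. In the mutant library, the number of members 2-fold or more lower in Scx-high cells went from 2 to 1 with an Scx cut of 15 per 10,000, with 3 or more UMIs over the 4 fibroblast genes, with a mean over cells in place of summed UMIs, with the 20 most abundant genes left out of the total, and with centring on the median ratio of all genes, in each case by the loss of Prelp. Between libraries in Scx-high cells, the number lower went from 4 to 2 with a mean over cells (Dcn and Kera), and to 3 with an Scx cut of 15 per 10,000 (Kera). In the wild-type library, the number higher in Scx-high cells went from 3 to 5 with the 20 most abundant genes left out and with centring. The causes of these changes were not tested. Under the other cuts of the classes and the filter on cells, the only alternatives run for it, the summed level of the family in Scx-high cells over Scx-low fibroblasts stayed between 1.69 and 1.92 in the wild-type and between 0.911 and 0.946 in the mutant library. No paired analysis was possible because each condition had 1 library. Depth limits Omd and Epyc most, and Prelp in mutant Scx-high cells rests on 55 UMIs.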

Other observations

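Within wild-type Scx-high cells, the 371 with 5 or more Col2a1 UMIs held Fmod at 5519.5 CPM, Lum at 56.6 and Aspn at 26.7, against 5163, 118 and 51.3 in the other 807, whose median depth was 3731 UMIs against 5067.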
